A study of Homo sapiens with 6 samples.

Results

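The cytochrome P450 enzymes were examined in NCI-H292, an established line of human lung mucoepidermoid carcinoma cells. The set holds every probe set annotated to 1 or several symbols that begin with CYP followed by a digit, without pseudogenes and antisense transcripts. CYP24A1, CYP27B1, CYP2R1 and CYP51A1 were left out. This gave 94 of 54613 probe sets on the array, which name 47 P450 symbols of 21357 gene symbols in all. One of these, CYP3A7-CYP3A51P, is a readthrough of CYP3A7 into a pseudogene and was kept. Several probe sets can stand for a single gene. Probe sets of one gene share their transcript and are not independent, and 6 of the 94 name more than 1 P450 symbol.

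The study compared 3 arrays of cells stably transfected with a fusion of CT45A1 and the fluorescent protein Venus (CT45A1 overexpression) with 3 arrays of cells that carried the Venus vector alone (CT45A1 negative). Both groups were NCI-H292 cells grown in DMEM complete medium with fetal bovine serum. CT45A1 is a cancer/testis antigen. Whether each transfected line was 1 clone or a pool, and whether the replicates were separate cultures, is not given in the sources used here, so the p-values below reflect variation among 6 arrays that may be purely technical. Each value is a MAS5 signal, the brightness of a probe set on a linear scale. Every difference is the mean log2 signal of the overexpression group minus that of the negative group, with n = 3 arrays per group.

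P450 enzymes are heme proteins that use electrons from NADPH to insert 1 atom of molecular oxygen into a substrate. Those of the endoplasmic reticulum take their electrons from P450 oxidoreductase, and the mitochondrial ones from ferredoxin. Different families oxidise drugs and inhaled chemicals, fatty acids and eicosanoids, retinoic acid, sterols, bile acids and steroid hormones. In airway epithelium CYP1A1 and CYP1B1 are known as targets of the aryl hydrocarbon receptor, which senses components of tobacco smoke.

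Both probe sets annotated to the CT45 family, each to 9 of its genes, had higher signals on all 3 overexpression arrays, with log2 differences of 5.93 and 3.87 (limma, adjusted p = 0.00539 and 0.0468). They do not tell CT45A1 from its relatives. The array medians were 79.2 to 83.4 in the overexpression group and 72.6 to 75.6 in the negative group, a difference of 0.14 in the mean log2 median. Centring each array on its median therefore lowers every difference below by this amount. All 12 epithelial marker genes had a probe set above the array median on at least 3 arrays, with summed signals of 92720 to 93120 against 94760 to 101000. Of 10 hepatocyte markers 1 did (TTR), of 6 club and ciliated cell markers 1 (CAPS), of 7 fibroblast markers 0, of 6 steroidogenic markers 1 (INHA), of 5 measured leukocyte markers 1 (CD14) and of 5 endothelial markers 2 (PECAM1 and CDH5). The summed endothelial signal was 416 to 466 in the overexpression group and 283 to 354 in the negative group, and the part of either marker sum in the P450 results was not tested. A sum gives most weight to the brightest genes, such as KRT18 (-0.25, limma adjusted p = 0.0393). Of 28 epithelial probe sets above the median on at least 3 arrays, 17 differed by more than 0 (60.7%, against 55.5% of all). At an adjusted p under 0.05, 2 were higher and 1 lower, against 1.89% and 1.34% of all. The ratio of actin signals at the 3' and 5' ends, a sign of RNA quality, was 1.42 to 1.55 against 1.64 to 1.91, so the groups did not overlap. With this ratio as a further covariate of the fit, 21 of the 25 P450 differences reported below kept their sign and moved by over 1.5 times, and 3 changed sign. The share of all probe sets that moved in this way was not counted. Because the ratio separated the groups, this fit cannot tell its part from that of CT45A1. The adjusted values show how far the differences depend on the ratio and are not corrected effects. The adjusted values are printed beside the members and partner genes described in most detail.

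Most P450 genes were dim in these cells. A probe set was tested when its signal exceeded the array's own median on at least 3 of the 6 arrays. This held for 25 of the 94 P450 probe sets (26.6%), against 50.6% of all probe sets, and the 25 name 20 of the 47 symbols. Of the 25, 12 exceeded the median on all 6 arrays and 13 on 3 to 5. The other 69 included 54 that exceeded it on no array. By role, 9 of 25 probe sets of fatty acid and eicosanoid P450s were tested, 12 of 42 of the xenobiotic P450s, 1 of 3 of the retinoic acid hydroxylases, 2 of 9 of the sterol and bile acid P450s, 0 of 13 of the steroid hormone P450s and 1 of 2 of the little characterised ones. Signals below the median carry no statement that a transcript was absent.

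**Figure D1:**
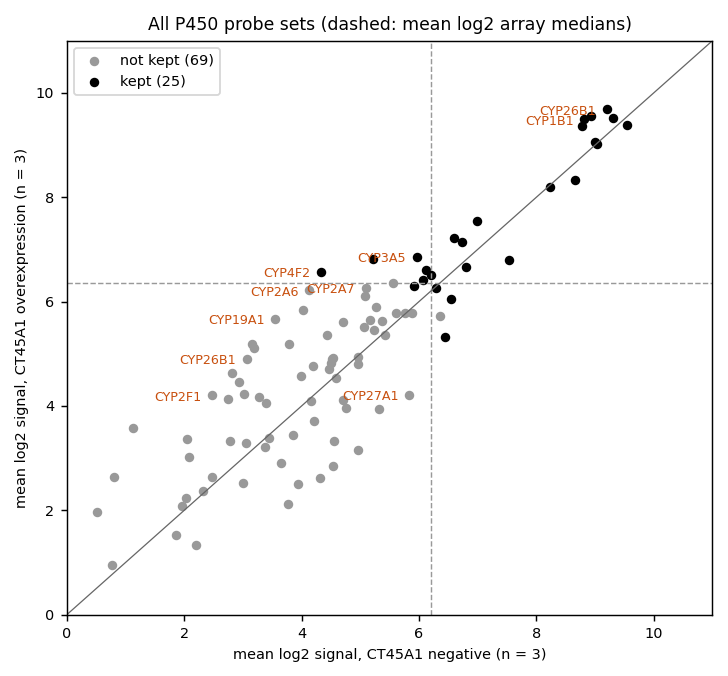
Mean log2 MAS5 signal of all 94 P450 probe sets in the CT45A1 negative group (horizontal axis) and the CT45A1 overexpression group (vertical axis), each over 3 arrays. Black points are the 25 tested probe sets, grey points the 69 others, dashed lines the mean log2 array medians of 6.204 and 6.35, and the diagonal marks equal means. Most points lie below and to the left of the dashed lines.

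In the comparison of CT45A1 overexpression with CT45A1 negative cells, 1 P450 probe set was higher at an adjusted p under 0.05, CYP4F2, where the background over all 27618 probe sets was 1.89%. CYP4F2 met the brightness filter only through its overexpression arrays, so its groups had to differ. It was not tested with the filter on the mean, and its adjusted p was 0.0558 with all probe sets tested. None was lower, against 1.34% over all. An unadjusted p under 0.05 was reached by 4 of the 25 (CYP4F2, CYP26B1, 1 probe set of CYP1B1 and 1 of CYP3A5), where 20.7% of all probe sets reached it. The 3 overexpression arrays lay wholly on one side of the 3 negative arrays for 4 of the 25, 3 higher and 1 lower, against 26.6% of all probe sets. The last 2 counts, 4 of 25 each, are below the background shares, and a single call is too few to set against 1.89%. Of the 25 differences, 17 were above 0 and 8 below (68.0% above 0, against 55.5% of all probe sets tested), with a median of 0.34 against 0.03. After centring on the array median, 15 were above 0 (60.0%, against 34.0%), with a median of 0.20 against -0.11. In bulk RNA, fewer cells of a type and less RNA per cell cannot be told apart.

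**Figure D2:**
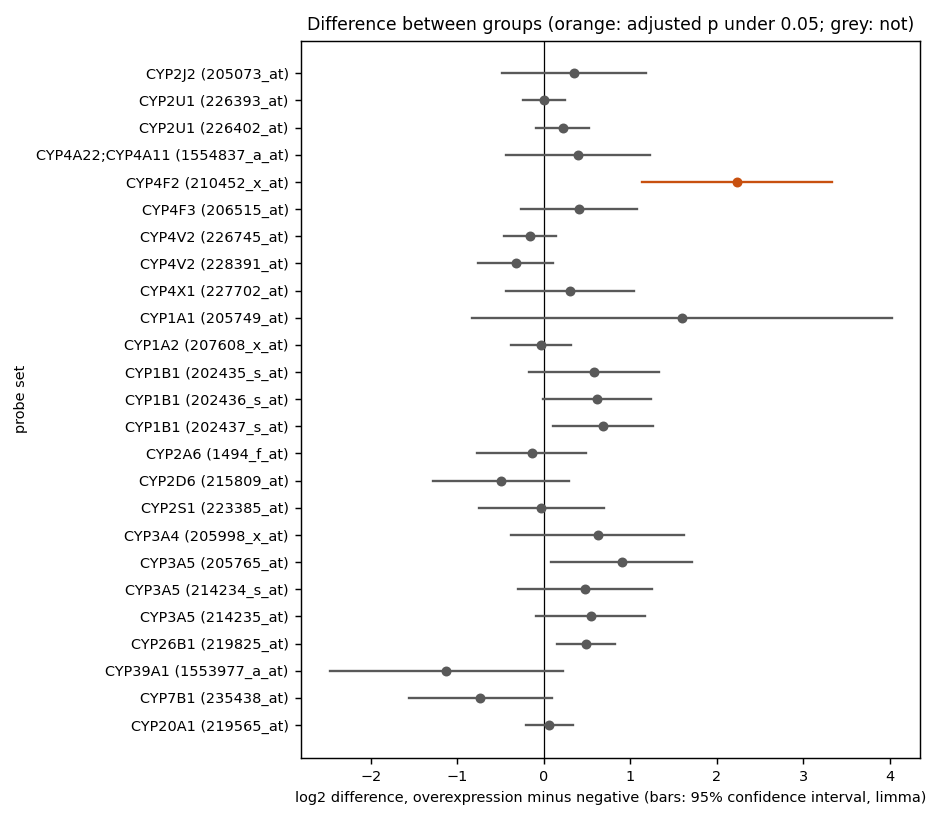
Difference in mean log2 MAS5 signal (overexpression minus negative) for each of the 25 tested P450 probe sets, with its 95% confidence interval from limma. CYP4F2, at 2.24, is the only probe set in orange (adjusted p under 0.05), and the interval of 21 others contains 0.

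Among the tested P450 genes of the set, CYP4F2 had the smallest p in limma. It encodes a hydroxylase that acts on the end of the carbon chain of arachidonic acid, leukotriene B4 and the side chains of vitamins E and K. Its probe set gave signals of 109, 91.9 and 86.2 on the overexpression arrays and 18.8, 20.03 and 21.8 on the negative arrays. The groups did not overlap, and the arrays within each group lay close together. Mean log2 signals were 6.57 ± 0.17 and 4.33 ± 0.11 (SD, n = 3), so that CYP4F2 rose by 2.24 (SE 0.50, 95% interval 1.14 to 3.34, limma adjusted p = 0.0413). All 3 negative arrays were below their array median and all 3 overexpression arrays above it, so the groups had to differ for this probe set to be tested at all. Set against the median of the negative arrays, the increase was at least 1.29-fold.

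The call for CYP4F2 lay close to the threshold. It was kept in 5 of 17 alternative analyses, whose adjusted p ranged from 0.0112 to 0.261, while the difference ranged from 1.29 to 2.31. With all 54613 probe sets tested the adjusted p was 0.0558 and after quantile normalization 0.0595. Leaving out 1 array at a time ended the call for 5 of the 6 arrays, with adjusted p of 0.172, 0.18 and 0.134 without overexpression replicates 1, 2 and 3, and of 0.0767 and 0.0677 without negative replicates 1 and 2. With adjustment for the actin ratio the difference was 2.23 (adjusted p = 0.261). The suffix _x_at marks a probe set with probes that can also match other transcripts, and this one was not tested where such probe sets were left out.

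A second probe set, annotated to CYP4F2 together with CYP4F3, did not show the same pattern. Its signals were 102, 44.1 and 37.7 on the overexpression arrays and 65.4, 23.3 and 74.8 on the negative arrays, a difference of 0.19 with overlapping groups and too few arrays above the median to be tested. CYP4F3, the leukotriene B4 hydroxylase of neutrophils, had a probe set of its own with signals of 131, 144 and 150.4 against 110.3, 69.8 and 158. Negative replicate 3 was the highest of these 6 arrays and negative replicate 2 the lowest. The difference of 0.41 (SE 0.30, adjusted p = 0.475) did not pass. It was 0.10 without negative replicate 2 and 1.36 with adjustment for the actin ratio (adjusted p = 0.158). CYP4F11, a further member of the same cluster of genes on chromosome 19, differed by 0.79 and was not tested.

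The windows around the annotated starts of CYP4F2 and CYP4F3, from 250 bases before to 50 after, are shown because CYP4F2 is the member that passed and CYP4F3 is its close relative on the same chromosome. They are RefSeq sequence of GRCh38.p14, printed 5' to 3' on the gene's strand, for CYP4F2 chr19:15898025-15898324 (minus strand) and for CYP4F3 chr19:15641062-15641361 (plus strand). Capitals mark matches to 4 short motifs searched on both strands, GCGTG (the core bound by the aryl hydrocarbon receptor with its partner ARNT), AGGTCA (a half-site of nuclear receptors), CCAAT and TATAAA.
CYP4F2: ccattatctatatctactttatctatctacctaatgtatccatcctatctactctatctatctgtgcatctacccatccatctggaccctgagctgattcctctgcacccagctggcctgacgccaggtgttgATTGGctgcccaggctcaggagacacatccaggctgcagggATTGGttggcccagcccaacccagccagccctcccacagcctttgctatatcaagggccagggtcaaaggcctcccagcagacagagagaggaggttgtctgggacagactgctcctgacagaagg
CYP4F3: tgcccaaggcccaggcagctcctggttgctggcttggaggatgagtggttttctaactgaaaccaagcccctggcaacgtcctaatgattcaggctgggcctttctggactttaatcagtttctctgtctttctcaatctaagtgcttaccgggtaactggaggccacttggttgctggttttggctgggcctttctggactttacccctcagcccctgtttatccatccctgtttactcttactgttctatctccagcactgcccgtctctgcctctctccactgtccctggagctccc
The CYP4F2 window held CCAAT 2 times, both as ATTGG on the reverse strand, 117 and 76 bases before the start. The CYP4F3 window held none of the 4 motifs. Of all 35116 RefSeq windows of this length, 36.5% held GCGTG, 13.8% AGGTCA, 34.6% CCAAT and 11.5% TATAAA. Of 46 windows listed for 35 P450 genes, 11 held GCGTG, 14 AGGTCA, 21 CCAAT and 17 TATAAA. Some genes have several windows, and CYP3A7 and its readthrough share 1, which is counted for both. A match to TATAAA and one to its reverse complement may overlap, and they did in CYP1A2 and CYP19A1. A match describes the letters only.

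The other tested fatty acid P450s did not pass. CYP4V2, a fatty acid hydroxylase whose loss causes a crystalline dystrophy of the retina, had signals of 815, 623 and 584 against 731, 822 and 690.0 at one probe set and 299.5, 438 and 254 against 429, 445 and 345 at another. The groups overlapped at both. The differences were -0.16 (95% interval -0.46 to 0.14) and -0.33 (-0.77 to 0.11). CYP2U1, which hydroxylates long-chain fatty acids, gave 476, 555 and 538 against 536, 506 and 521 at its first probe set and 651, 874 and 696 against 592, 577 and 739.9 at its second. These differed by 0.002 (-0.24 to 0.24) and 0.22 (-0.09 to 0.53), again with overlapping groups. CYP2J2, an epoxygenase of arachidonic acid, CYP4X1, and the probe set shared by the fatty acid hydroxylases CYP4A11 and CYP4A22 differed by 0.34, 0.30 and 0.40, with adjusted p of 0.646, 0.649 and 0.59. None of the 9 tested probe sets of this role was lower at the threshold.

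**Figure D3:**
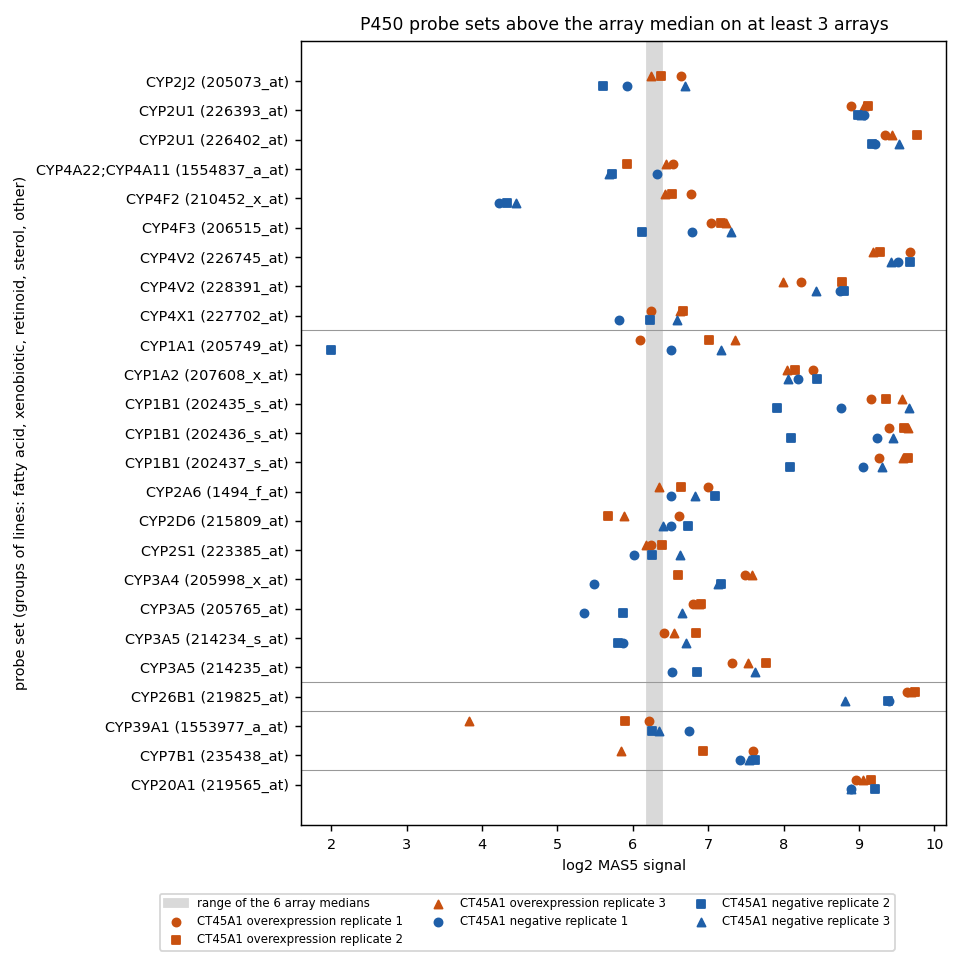
Log2 MAS5 signal of the 25 tested P450 probe sets on each of the 6 arrays, with colour for the group and shape for the replicate, and the grey band for the range of the array medians. CYP4F2 is on both sides of the band without overlap, and CYP1A1 and the CYP1B1 probe sets are lowest on CT45A1 negative replicate 2.

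Among the P450s that oxidise foreign chemicals, none of 12 tested probe sets passed. CYP1B1, which activates polycyclic aromatic hydrocarbons and hydroxylates estradiol, was measured by 3 tested probe sets, given here in the order of the plots. The first gave 570.2, 655 and 764 on the overexpression arrays and 432, 241 and 813 on the negative arrays. The second gave 676, 776 and 802 against 606, 275 and 699.7. The third gave 614, 803 and 765 against 531, 272 and 636. Negative replicate 2 was lowest at all 3 probe sets and the groups overlapped at each through negative replicate 3 alone. The differences were 0.58 (SE 0.34, adjusted p = 0.354), 0.62 (SE 0.28, adjusted p = 0.246) and 0.68 (SE 0.26, 95% interval 0.10 to 1.26, adjusted p = 0.177).

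These CYP1B1 values turned on single arrays. Without negative replicate 2 the differences were 0.15, 0.20 and 0.32. Without negative replicate 3 they were 1.03, 0.88 and 0.93, and the first passed (limma adjusted p = 0.04, against 0.0992 and 0.066). With adjustment for the actin ratio they were 2.10, 1.60 and 1.64, and all but the second passed (adjusted p = 0.00771, 0.0535 and 0.0335). That ratio cannot be told apart from the group, so these are not corrected effects. The remaining CYP1B1 probe set was not tested, with signals of at most 38.5 on any array.

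CYP1A1, the most inducible target of the aryl hydrocarbon receptor, gave 68.4, 129 and 163 on the overexpression arrays and 90.9, 3.98 and 144 on the negative arrays. Negative replicate 2 alone was far below the rest. The difference of 1.60 (SE 1.10, 95% interval -0.83 to 4.03, adjusted p = 0.439) became -0.018 without that array, and 5.48 with adjustment for the actin ratio (adjusted p = 0.0834). CYP1A2, its neighbour on chromosome 15 and a main caffeine oxidase of liver, gave 335, 285 and 265 against 291.7, 347 and 267. The groups overlapped, with a difference of -0.03 (95% interval -0.38 to 0.31). This probe set carries the suffix _x_at, so its signal may come in part from other transcripts. The other CYP1A2 probe set was below the array median on every array and was not tested. It gave 21.5, 24.9 and 24.7 against 16.6, 37.4 and 6.4, a difference of 0.58 with overlapping groups.

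The CYP3A family holds the main drug-oxidising enzymes of liver and gut, and CYP3A5 is the form best known from lung. The probe set of CYP3A5 with the smallest p gave 111, 119.9 and 118 against 40.9, 58.6 and 100.4. All 3 overexpression arrays were higher than every negative array, with a difference of 0.90 (SE 0.37, 95% interval 0.08 to 1.72) that did not pass (adjusted p = 0.201). Without negative replicate 1 it was 0.60, without negative replicate 3 it was 1.25 (adjusted p = 0.0825), and with adjustment for the actin ratio 1.78 (adjusted p = 0.173). The other tested probe sets of CYP3A5 gave 85.1, 114 and 93.7 against 58.4, 55.9 and 104, and 159, 217 and 184 against 91.4, 115 and 197. In both, negative replicate 3 reached into the overexpression range, and the differences were 0.48 and 0.54 (adjusted p = 0.47 and 0.308). Over single arrays left out they ranged from 0.32 to 0.76 and from 0.30 to 0.85, highest in both cases without negative replicate 3. With adjustment for the actin ratio they were 1.32 and 1.42 (adjusted p = 0.282 and 0.12). Its remaining probe set was dim on every array and differed by -0.012. CYP3A4 differed by 0.62 (SE 0.45, adjusted p = 0.465) with signals of 179.7, 96.8 and 191 against 44.9, 144 and 141. Negative replicate 1 was lowest, and without it the difference was 0.07. Its probe set also carries the suffix _x_at, and CYP3A genes are close in sequence, so the signals of its members cannot be fully told apart.

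The windows of CYP1A1 and CYP3A5 are shown as the start regions of a target of the aryl hydrocarbon receptor and of nuclear receptors, respectively. They are chr15:74725479-74725778 and chr7:99679947-99680246 of GRCh38.p14, both on the minus strand and from RefSeq, with the same 4 motifs in capitals.
CYP1A1: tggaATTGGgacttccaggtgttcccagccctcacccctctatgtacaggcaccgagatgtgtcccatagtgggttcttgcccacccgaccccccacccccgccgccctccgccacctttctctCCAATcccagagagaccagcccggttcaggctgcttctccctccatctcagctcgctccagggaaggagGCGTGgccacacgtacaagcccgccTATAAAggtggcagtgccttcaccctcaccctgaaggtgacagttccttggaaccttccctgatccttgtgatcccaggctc
CYP3A5: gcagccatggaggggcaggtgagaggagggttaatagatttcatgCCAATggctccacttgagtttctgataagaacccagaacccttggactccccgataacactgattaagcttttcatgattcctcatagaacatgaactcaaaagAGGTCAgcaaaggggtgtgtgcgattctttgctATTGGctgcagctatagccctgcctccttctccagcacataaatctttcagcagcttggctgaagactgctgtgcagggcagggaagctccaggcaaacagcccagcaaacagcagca
In the CYP1A1 window GCGTG lay 57 bases and TATAAA 32 bases before the start, and CCAAT was found on each strand. In the CYP3A5 window AGGTCA lay 101 bases before the start, with CCAAT also on each strand. CYP1B1 had no entry in the table used.

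Of the remaining xenobiotic P450s, CYP2A6, the nicotine oxidase, differed by -0.14 (adjusted p = 0.818), CYP2D6, which oxidises many drugs, by -0.49 (adjusted p = 0.459), and CYP2S1, a form expressed in airway epithelium, by -0.03 (adjusted p = 0.971). Their 95% intervals were -0.77 to 0.49, -1.28 to 0.29 and -0.75 to 0.69. Differences of any size within these intervals are compatible with the 3 arrays per group.

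The retinoic acid hydroxylases clear retinoic acid, the ligand of the RAR nuclear receptors. CYP26B1 gave 794, 855 and 823 on the overexpression arrays and 674, 671 and 448 on the negative arrays. All overexpression arrays were higher, and negative replicate 3 was the lowest of the 6. The difference was 0.49 (SE 0.15, 95% interval 0.15 to 0.82) and did not pass (adjusted p = 0.112). It was 0.29 without negative replicate 3, and -0.013 with adjustment for the actin ratio (adjusted p = 0.984). A second probe set was below the array median on all arrays, with 20.4, 25.1 and 53.0 against 15.5, 3.19 and 11.8. CYP26A1, the retinoic acid hydroxylase that retinoic acid itself induces, was also dim on all arrays and differed by -0.41.

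The window of CYP26B1 is printed because it was the bright P450 gene with the smallest p after CYP4F2. It is chr2:72147813-72148112 of GRCh38.p14 (minus strand, RefSeq).
CYP26B1: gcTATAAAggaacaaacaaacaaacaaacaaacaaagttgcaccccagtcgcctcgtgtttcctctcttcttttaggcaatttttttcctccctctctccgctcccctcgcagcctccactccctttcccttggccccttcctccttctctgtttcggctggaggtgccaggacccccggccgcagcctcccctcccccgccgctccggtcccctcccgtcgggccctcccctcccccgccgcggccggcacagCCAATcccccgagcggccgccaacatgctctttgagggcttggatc
It held TATAAA 248 bases before the start and CCAAT 4 bases after it, and neither GCGTG nor AGGTCA.

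Both tested P450 genes of sterol and bile acid metabolism had lower means in the overexpression group, and neither passed. CYP39A1, an oxysterol hydroxylase of bile acid synthesis, gave 74.5, 59.3 and 14.2 against 106.8, 76.0 and 81.2. The groups did not overlap, and overexpression replicate 3 was far below the others. The difference was -1.13 (SE 0.61, adjusted p = 0.318). All overexpression arrays were below their median. The negative mean was 1.07-fold the median of the overexpression arrays, which is a lower bound on the fold between the groups. This probe set was tested only through its negative arrays, so its groups had to differ. Without overexpression replicate 3 the difference was -0.39, and with adjustment for the actin ratio -2.22 (adjusted p = 0.316). The other CYP39A1 probe sets, too dim to be tested, differed by 0.27 and 0.05 with overlapping groups. CYP7B1, which also hydroxylates oxysterols, gave 193, 122 and 57.6 against 171, 196 and 186, with overexpression replicate 1 inside the negative range. It differed by -0.74 (SE 0.37, adjusted p = 0.292), by -0.26 without overexpression replicate 3 and by -1.50 with adjustment for the actin ratio (adjusted p = 0.253). Its second probe set, too dim to be tested, differed by 0.63 in the opposite direction, with no overlap between the groups.

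No probe set of the steroid hormone P450s (CYP11A1, CYP11B1, CYP11B2, CYP17A1 and CYP19A1) was bright enough to be tested. CYP20A1, a P450 of unknown substrate, gave 500.2, 570.4 and 534 against 474, 593 and 475, and differed by 0.06 (95% interval -0.21 to 0.34).

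Without a filter, 0 of the 94 P450 probe sets had an adjusted p under 0.05 in limma, against 0.89% of all 54613. An unadjusted p under 0.05 was reached by 10 of the 94. The share of all 54613 that reached it was not counted, so the 10 cannot be set against a background. Of the 69 dim P450 probe sets, 6 had separated groups and a difference of at least 1, a share near the 8.12% of all dim probe sets that did. CYP27A1, the mitochondrial sterol hydroxylase, gave 18.2, 16.9 and 20.6 against 43.3, 49.1 and 87.7 (difference -1.63, adjusted p without a filter 0.245). It was the only one of the 6 that was lower with CT45A1. CYP2A6 at 1 of its dim probe sets gave 57.0, 79.9 and 89.5 against 9.05, 14.9 and 39.5 (2.09, adjusted p = 0.191), and CYP2A7, its close relative, 85.6, 71.4 and 74.3 against 25.1, 37.7 and 41.9 (1.17, adjusted p = 0.278). The probe set of CYP2A6 tested above differed by -0.14, so the probe sets of this gene did not move together. CYP19A1, aromatase, gave 52.1, 69.9 and 36.5 against 9.57, 6.86 and 24.4 at 1 of its 7 probe sets (2.13, adjusted p = 0.228). CYP2F1, a lung P450 that activates naphthalene, gave 8.31, 42.4 and 17.8 against 5.06, 5.40 and 6.31 (1.73, adjusted p = 0.437). The sixth was the dim CYP26B1 probe set, at 1.84 (adjusted p = 0.4). None of these 6 passed.

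Because P450 activity depends on other proteins, genes around them were read from the same fit. The electron donors and their relatives were bright, with 19 of 22 probe sets tested, 0 higher and 0 lower, and a median difference of -0.03 against 0.03 over all probe sets. After median centring 2 of the 19 were above 0 (10.5%, against 34.0% of all). The overexpression arrays lay wholly above the negative ones at 2 of the 19 and wholly below at 4, against 26.6% of all in either direction. P450 oxidoreductase (POR) gave 372, 395 and 334 against 319.7, 311 and 301, higher on all 3 overexpression arrays, by 0.24 (SE 0.13, adjusted p = 0.316), and by 0.09 after median centring and 0.12 with adjustment for the actin ratio. CYB5B, the cytochrome b5 of the mitochondrial outer membrane, differed by 0.30 at 1 probe set (SE 0.08, adjusted p = 0.0728) and by 0.05, -0.03 and 0.002 at the other 3. The first of these was 0.15 after median centring (adjusted p = 0.295) and 0.11 with adjustment for the actin ratio (adjusted p = 0.695), and it passed with the filter at the 75th percentile (0.30, adjusted p = 0.0497). CYB5A, the cytochrome b5 of the endoplasmic reticulum, differed by -0.15 at its probe set with the smallest p (adjusted p = 0.246). The enzymes of heme synthesis and breakdown had 21 of 27 probe sets tested, 0 higher and 0 lower, with a median of 0.02 (UROD -0.21, adjusted p = 0.121, and CPOX -0.15, adjusted p = 0.298, had the smallest p). Epoxide hydrolases and conjugating enzymes had 6 of 31 tested, 0 higher and 0 lower, with a median of 0.11, among them EPHX4 at -0.30 (adjusted p = 0.144) and SULT1B1 at 0.78 (adjusted p = 0.456).

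Genes of the aryl hydrocarbon receptor pathway did not move together. Of 13 tested probe sets, 0 were higher and 1 lower, with a median of -0.03. The lower one was NQO1, a quinone reductase also controlled by the oxidative stress factor NRF2, which gave 4423, 4852 and 4896 at 1 probe set against 6812, 5794 and 6848. NQO1 fell by 0.45 there (SE 0.08, adjusted p = 0.0184), with no overlap. Its other probe sets differed by 0.11 and 0.02 (adjusted p = 0.496 and 0.918), so the decrease was seen at 1 of 3. The call was lost without negative replicate 1, overexpression replicate 1 or overexpression replicate 2 (adjusted p = 0.0771, 0.0785 and 0.071), without the variance trend (0.12), and with adjustment for the actin ratio (-0.24, adjusted p = 0.326).

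AHR, the receptor itself, gave 1396, 1379 and 1586 against 1036, 841 and 1253, higher on all 3 overexpression arrays, by 0.49 (SE 0.13, adjusted p = 0.0775). It passed without negative replicate 3 (0.64, adjusted p = 0.021) and with adjustment for the actin ratio (1.002, adjusted p = 0.0129). After median centring AHR differed by 0.35 (adjusted p = 0.116), and without negative replicate 2 also by 0.35 (adjusted p = 0.164). Its adjusted p was 0.122 without a filter and 0.201 without the variance trend. AHRR, the repressor that the receptor induces, gave 452, 388 and 373 against 484, 721 and 489.8 and differed by -0.46 (SE 0.16, adjusted p = 0.148). It passed after median centring (-0.61, adjusted p = 0.0383), where 2588 of all 27618 probe sets were lower, against 370 in the main fit. AHRR was -0.27 without negative replicate 2 (adjusted p = 0.34) and -0.92 with adjustment for the actin ratio (adjusted p = 0.095). ALDH3A1, an aldehyde dehydrogenase that the receptor also controls, differed by -0.87 with overlapping groups (adjusted p = 0.368). On negative replicate 2 AHR was lowest and AHRR highest of the 6 arrays, the array on which CYP1A1 and CYP1B1 were lowest.

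**Figure D4:**
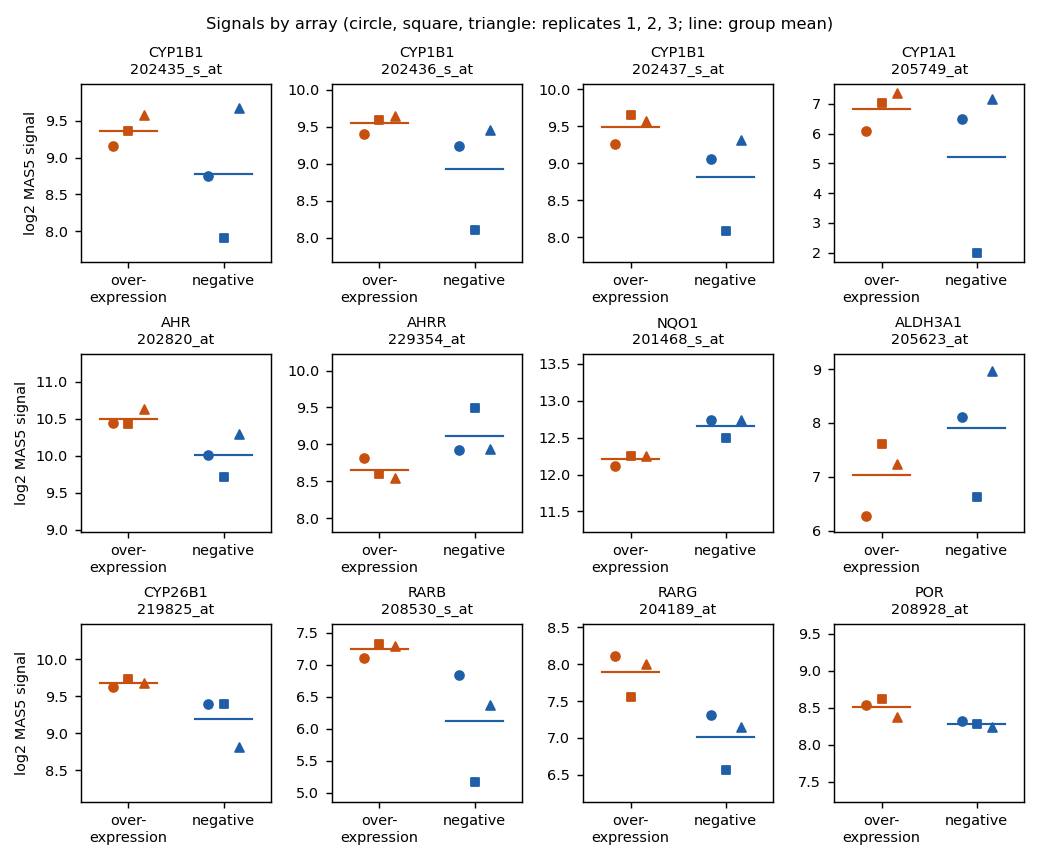
Log2 MAS5 signal on each array for CYP1B1, CYP1A1, genes of the aryl hydrocarbon receptor pathway, CYP26B1, retinoic acid receptors and POR. Circles, squares and triangles are replicates 1, 2 and 3 and horizontal lines are group means. Among the 12 panels NQO1 alone passed the threshold, and CYP1B1, CYP1A1, AHR, RARB and RARG are lowest on CT45A1 negative replicate 2.

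The nuclear receptors that control P450 genes had 16 of 35 probe sets tested, 0 higher and 0 lower, with a median of 0.22, and 12 of the 16 were above 0, against 55.5% of all probe sets tested. After median centring 8 of the 16 were above 0, against 34.0% of all, with a median of 0.08. RARG, a retinoic acid receptor, gave 275, 188 and 256 against 159, 95.04 and 142 at one probe set, lowest on negative replicate 2. The difference there was 0.87 (SE 0.24, adjusted p = 0.082). Another tested RARG probe set differed by 0.60 with overlapping groups (adjusted p = 0.416). RXRA, the shared partner of these receptors, differed by 0.31 at its probe set with the smallest p (adjusted p = 0.141), and by 0.57 with adjustment for the actin ratio and 0.21 without negative replicate 2. RARB, which retinoic acid induces, gave 138, 161 and 157 against 115, 35.8 and 82.8 at one probe set and differed by 1.12 (adjusted p = 0.148) there and by 0.39 (adjusted p = 0.269) at another. These were 0.64 without negative replicate 2 at the first and 0.20 without overexpression replicate 2 at the second, and with adjustment for the actin ratio they were 1.80 and 0.06 (adjusted p = 0.22 and 0.949). At these probe sets of RARG, RXRA and RARB with the smallest p, the overexpression arrays did not overlap the negative ones. At the other tested probe sets of these genes they did. The groups were separated at 4 of the 16 tested receptor probe sets, all higher, a share near the 26.6% of all probe sets.

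Among P450 genes outside the set, CYP24A1, the hydroxylase that inactivates vitamin D, was higher on all overexpression arrays by 2.14 (adjusted p = 0.0005), while CYP27B1 differed by -0.23 (adjusted p = 0.44) and CYP2R1 by 0.26 and 0.08 (adjusted p = 0.45 and 0.65). The P450 enzymes without a CYP symbol, prostacyclin synthase (PTGIS) and thromboxane synthase (TBXAS1), had 5 probe sets, of which 0 were tested.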

How the data were processed

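The deposited values are intensity signals, 1 per probe set and array, made by the authors with MAS5 and affy, per the submitters' processing notes (versions are not given in the sources used here). They had a 2% trimmed mean of 500.1 on every array. Detection calls were not used here. Groups and replicate numbers came from the sample titles.

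Signals were taken to log2 without an offset. The 62 control probe sets were left out, and probe sets with a signal above the array median on at least 3 of 6 arrays were kept, which left 27618. Groups were compared with limma 3.58.1 (R 4.3.3; lmFit, eBayes with trend, two-sided), with Benjamini-Hochberg adjustment over the probe sets kept and a threshold of 0.05. Each ± is an SD over 3 arrays and each SE is limma's. Where a group's arrays were below their medians, folds were taken against those medians and are lower bounds. Tables and plots used Python 3.11.15, pandas 2.3.3 and matplotlib 3.10.9.

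Names came from the platform annotation, parts of which may be outdated, and symbols were renewed through RefSeq. Of 54613 probe sets, 41091 had 1 symbol, 1801 several and 11721 none. Left out were 12 probe sets of P450 pseudogenes, antisense or other such symbols and 7 of the 4 genes named in the report. Promoter windows are RefSeq's, on GRCh38.p14. The deposited files name no build.

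The members and the gene lists were chosen with earlier results of these data known. Named in the text are members past the threshold, tested members (in full for those with an unadjusted p under 0.05 and the 3 brightest genes of each role), dim members with separated groups and a difference of at least 1, and in each partner list the probe sets that passed or otherwise the 2 with the smallest p. POR, RARB, AHR, AHRR, ALDH3A1 and the other CYB5B, RARB and RARG probe sets were added after their values were seen.

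On simulated arrays with 27618 probe sets, 49.3%, 74.6% and 92.4% of those changed 1.5-, 2- and 4-fold were recovered, and 15 of 159 calls were false. The simulated noise was independent and normal, with spreads taken from limma's SE, and held no outlying arrays. These shares are therefore not the power of the real data. The alternatives were other normalizations, filters, variance models and probe set rules, an offset of 32, the replicate number as a block, and leaving out each array. Cyclic loess, a filter on the mean and the actin ratio as a covariate were added after seeing the data.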

Additional observations from a re-analysis of the deposited data

How the results depend on the processing

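The count of 1 higher P450 probe set (CYP4F2) became 0 after quantile normalization, cyclic loess, no filter, a filter at the 75th percentile or on the mean over all arrays, robust eBayes, averaging the probe sets of a gene, and leaving out the suffixes _x_at and _s_at. CYP4F2 itself was not tested under both stricter filters and the last setting. The count stayed at 1 with median centring, an offset of 32, no variance trend and the brightest probe set per gene. It was 2 when the actin ratio was a covariate (both CYP1B1, without CYP4F2), and ranged from 0 to 2 when single arrays were left out. The count of lower P450 probe sets was 0 under every alternative run. CYP26B1 differed by -0.013 with the actin covariate, against 0.49, and its adjusted p ranged from 0.0733 to 0.984.

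Over all probe sets, 892 passed. The count was 2975 after median centring (387 higher and 2588 lower, against 522 and 370), 486 without a filter, 4 without the variance trend, 457 with the brightest probe set per gene, 338 after averaging a gene's probe sets, and 446 without the suffixes _x_at and _s_at. It ranged from 156 to 1152 when single arrays were left out. Fewer units were tested under both probe set rules per gene and without the suffixes. Median centring lowered every difference by 0.14, with 34.0% of all tested probe sets above 0 after it, against 55.5%. Beyond this, the cause for the other settings was not tested.

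Same-numbered arrays had correlations of their deviations from the group means of -0.011, -0.0068 and 0.103, so the numbers were not taken to pair the arrays. With the replicate number as a block 0 P450 probe sets were higher (CYP4F2 2.24, adjusted p = 0.0628), AHR and RARG had adjusted p of 0.0249 and 0.0383, and 1189 probe sets passed. Precision is limited by having 3 arrays per group, and for dim members by signals near or below the array median.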
